A study of Mus musculus with 12 samples.

Results

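The circadian clock genes described here are Arntl, Clock, Per1, Per2, Per3, Cry1, Cry2, Nr1d1, Nr1d2 and Dbp. They were chosen by name as known parts of the clock, with earlier results of these data known, and were matched by mouse symbol to the Ensembl identifiers of the count files. They are 10 of the 49548 genes counted, and all 10 were among the 15942 genes that passed the filter on low counts. RNA was taken from the lumbar spinal cord, the segment that serves the hind limbs, of untreated mice at 30 days of age. The 8 MFN2 mice were hemizygous MitoCharc1 animals, the line L51Ugfm/J on a B6;D2 background. They carry human MFN2 with the R94Q change (the Tg(Eno2-MFN2*R94Q) transgene) next to both of their own Mfn2 copies. The rat Eno2 promoter directs that transgene mainly to neurons. The 4 WT mice carried no transgene. Their label gives the strain as C57BL/6, while the study's methods speak of WT littermates, so a difference of strain background cannot be told apart from the genotype. No agent was given to either group, and the mice were housed with alternating light and dark. The hour at which tissue was taken is not given in the sources used here. Total counts lay between 19359454 and 26738930 per library.

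The libraries carry numbers in 2 runs. The first run holds MFN2 libraries 41 to 43 and WT libraries 44 to 47, and the second run holds MFN2 libraries 72 to 76. The labels say nothing of what the runs were, whether days of dissection, extractions or sequencing. The runs can be compared at 1 genotype only among the MFN2 mice, and in a comparison of the second run with WT the run and the genotype cannot be told apart. The question put to the clock genes was whether the runs differ in the manner in which samples taken at different times of day differ.

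In nearly every mammalian cell the clock is a loop of transcription. BMAL1, the protein of Arntl, pairs with CLOCK or its relative NPAS2 and binds E-boxes near the Per, Cry, Nr1d1, Nr1d2 and Dbp genes, whose RNA then rises. PER and CRY proteins return to the nucleus and hold the pair back, while the nuclear receptors NR1D1 and NR1D2 (REV-ERB alpha and beta) compete with ROR receptors and repress Arntl and Npas2. DBP acts on D-boxes in genes such as Per3. In most mouse tissues the RNAs of Arntl and Npas2 therefore peak in antiphase to those of Nr1d1, Dbp and the Per genes, and Dbp and Nr1d1 have the widest swings, while Clock and Cry2 swing little.

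Library 43 stood apart from the rest, and the comparison of the runs is given with and without it. The summed level of 8 forebrain genes was 3693 CPM (read counts scaled for sequencing depth) in library 43 and between 103 and 194 CPM in the other 11 libraries, with Camk2a the most abundant. Its summed level of 6 Hox genes of the lumbar cord was 21.5 CPM, against 118 to 166 CPM elsewhere, and that of 5 motor neuron genes was 29.5 CPM, against 127 to 307 CPM. No lumbar Hox gene and no motor neuron gene of these lists was at 0 in any library. Library 73 of the second run stood apart in genes of tissues around the cord. Its 5 Schwann cell genes summed to 323 CPM, where library 43 had 296 CPM and the other 10 between 43.4 and 84.3 CPM. Its 5 blood genes summed to 333 CPM, against 68.1 to 202 CPM in the rest. Its 5 skeletal muscle genes summed to 205 CPM, near WT library 47 at 211 CPM, while the other 10 lay between 2.03 and 37.7 CPM. The sexes were also unevenly spread. Xist, made from the inactive X of females, lay between 258 and 402 CPM in 9 libraries, and in these Ddx3y, a Y-linked gene, was at 0. In libraries 41, 43 and 44 Ddx3y was 89.4, 66.4 and 86.7 CPM and Xist at most 0.267 CPM. All 5 second-run libraries thus came from females, as did libraries 42, 45, 46 and 47 of the first run.

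Short sequences by which the arms of the loop act were looked for in RefSeq promoters on GRCm38.p6. Each had 300 bases, 250 before and 50 after the start annotated for that promoter, which need not be the first base of the gene. The table held 13 promoters for 9 of the 10 genes. Per2 was the gene without one. Letters were searched on both strands as the E-box CACGTG, the E-prime-box CACGTT, the D-box TTATGTAA or TTACGTAA, the ROR element core TAGGTCA or TGGGTCA, and the cAMP response element TGACGTCA. No site was counted under 2 names. The promoters of Per1, Per3 and Arntl are shown as examples from both arms of the loop that each hold a different motif, printed in capitals and read 5′ to 3′ on the strand of the gene. They lie at chr11:69098699-69098998 (plus strand), chr4:151044616-151044915 (minus strand) and chr7:113207261-113207560 (plus strand).
Per1: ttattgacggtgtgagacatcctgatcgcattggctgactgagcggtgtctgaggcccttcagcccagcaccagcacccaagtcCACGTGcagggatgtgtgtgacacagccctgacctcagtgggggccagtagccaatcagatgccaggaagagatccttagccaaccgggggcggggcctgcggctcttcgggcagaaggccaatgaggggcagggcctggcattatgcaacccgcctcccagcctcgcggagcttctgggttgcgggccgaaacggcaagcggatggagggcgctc
Per3: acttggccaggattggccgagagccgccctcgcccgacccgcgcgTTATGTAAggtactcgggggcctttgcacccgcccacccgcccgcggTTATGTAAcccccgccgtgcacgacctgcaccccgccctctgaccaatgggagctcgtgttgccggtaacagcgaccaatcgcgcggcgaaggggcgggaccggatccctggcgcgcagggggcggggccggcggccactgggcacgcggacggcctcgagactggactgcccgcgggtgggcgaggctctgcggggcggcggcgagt
Arntl: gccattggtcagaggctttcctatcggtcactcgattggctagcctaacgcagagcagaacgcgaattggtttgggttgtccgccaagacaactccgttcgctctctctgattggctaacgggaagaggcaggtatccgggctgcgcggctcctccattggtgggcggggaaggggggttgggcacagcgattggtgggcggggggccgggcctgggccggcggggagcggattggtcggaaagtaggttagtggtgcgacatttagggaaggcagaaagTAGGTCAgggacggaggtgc
In Per1 the capitals mark an E-box that begins 166 bases before the start. In Per3 they mark 2 D-boxes, beginning 205 and 158 bases before the start, and in Arntl a ROR core 30 bases after it. The whole Per1 window lies inside the span of the gene given below (chr11:69095217-69109960), and the Arntl start also lies inside its gene span. An E-box was also present in Cry1, 60 bases before the start. An E-prime-box, read as AACGTG, was present in Cry1, Cry2 and Nr1d1 at 79, 166 and 28 bases before the start. Among all 32851 promoters of this length, 7.15% held the E-box, 4.68% the E-prime-box, 1.056% the D-box and 6.45% the ROR core. The cAMP response element was in 1.79% of them and in 0 of the 13. None of the 5 motifs lay in the Dbp, Nr1d2 or Clock windows, which says only that these letters are not there.

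Within the 4 WT mice, levels per kilobase of annotated exon (RPKM) ran from 17.4 ± 1.86 (SD, n = 4) for Nr1d2, a repressor of Arntl, to 1.96 ± 0.293 for Per2, a repressor of the BMAL1 pair. Between them came Nr1d1 at 13.2 ± 0.787, Cry2 at 11.004 ± 0.403, Dbp at 10.2 ± 1.62 and Clock at 8.46 ± 0.225 RPKM. Cry1 at 4.99 ± 0.308, Per1 at 4.30 ± 0.483, Per3 at 3.41 ± 0.482 and Arntl at 2.93 ± 0.135 RPKM followed. The ranges of Cry2 and Dbp overlapped, as did those of Cry1 and Per1, Per1 and Per3, and Per3 and Arntl. In the second run Dbp stood at 18.6 ± 2.20 RPKM (SD, n = 5), next to Nr1d2 at 19.1 ± 0.716 with overlapping ranges, and Per1 at 8.76 ± 1.37 RPKM overlapped with Clock at 8.32 ± 0.315. Arntl had the lowest mean there at 2.22 ± 0.134 RPKM, with a range that overlapped that of Per2 at 2.89 ± 0.349. The exons behind these levels are shared in part with genes on the opposite strand, and whether counting used strand is not given in the sources used here. Sphk2 shares 539 bases (18.0%) of the exon sequence of Dbp, Thra 263 bases (8.55%) of Nr1d1, D930015M05Rik 295 bases (4.67%) of Cry2 and Gm45355 33 bases (0.439%) of Arntl.

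**Figure D1:**
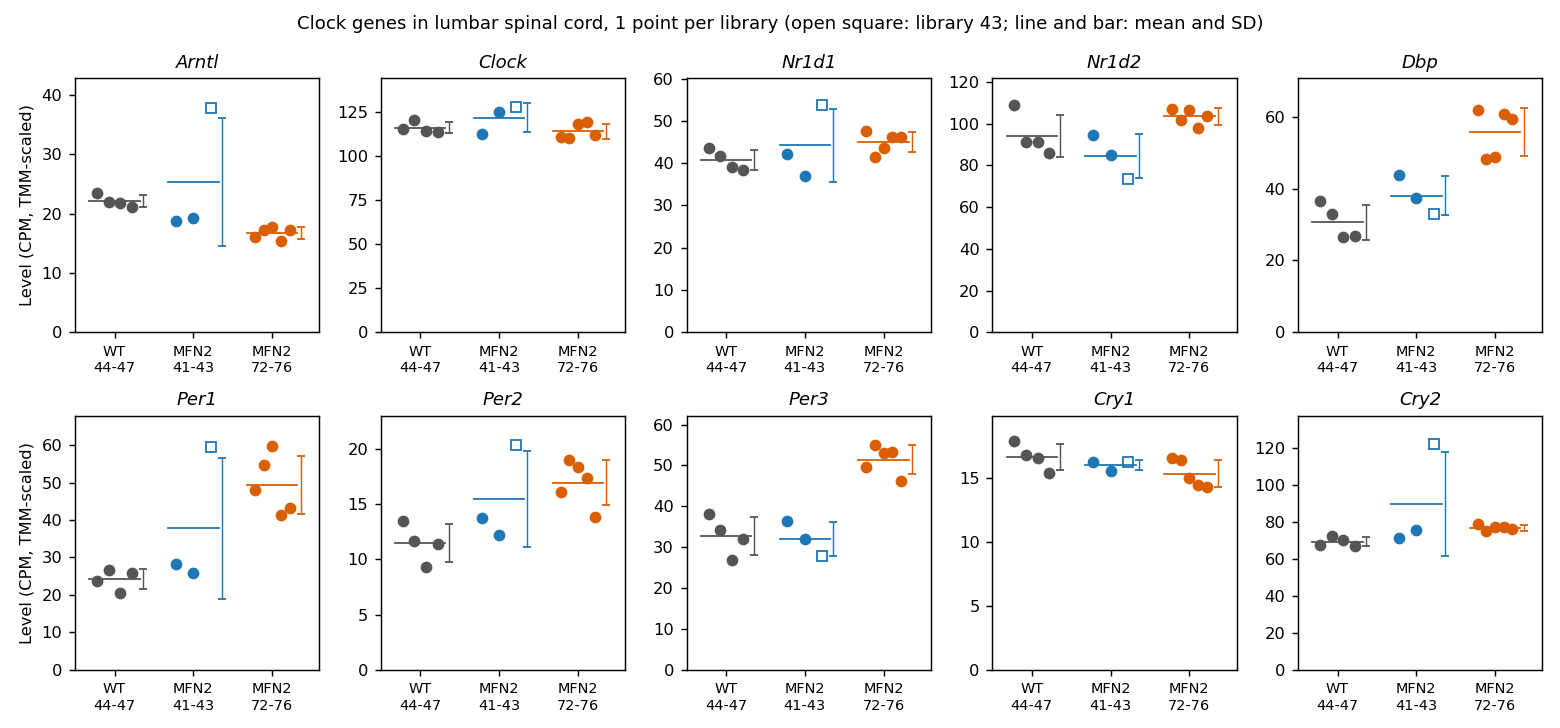
Level of each of the 10 clock genes in CPM (vertical axis, starting at 0) in WT libraries 44 to 47, first-run MFN2 libraries 41 to 43 and second-run MFN2 libraries 72 to 76, 1 point per library, with the mean as a line and the SD as a bar. The second-run points of Dbp and Per3 lie above all first-run points and those of Arntl below them, and library 43 (open square) lies far above libraries 41 and 42 in Arntl, Per1, Per2 and Cry2.

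Dbp, the output factor of the clock that binds D-boxes, was higher in every second-run library than in any first-run library. The gene lies on the plus strand of chr7:45705088-45710203 on GRCm38 (ENSMUSG00000059824). Its level was 61.7, 48.3, 48.9, 60.7 and 59.2 CPM in libraries 72 to 76, and 43.7, 37.3 and 32.9 CPM in libraries 41 to 43. In WT libraries 44 to 47 it was 36.5, 32.8, 26.6 and 26.7 CPM. The second run lay on top without overlap. MFN2 libraries 41 and 42 lay above all 4 WT libraries, and library 43 lay within the WT range. Between runs within MFN2, the quasi-likelihood test of edgeR gave a log2 fold change of 0.55 ± 0.14 (SE), 1.47-fold, with FDR 0.0321 (the p adjusted by Benjamini-Hochberg over all genes tested). Without library 43 it was 0.46 ± 0.14 with FDR 0.0462. The call was lost when library 42, 72, 74, 75 or 76 was left out (FDR 0.0505 to 0.0875) and with only the 8 MFN2 libraries in the fit (FDR 0.0600), while the log2 fold change stayed at 0.49 or more in these fits. It was also lost with sex as a covariate, where the log2 fold change was 0.68 ± 0.16 (FDR 0.0617). In bulk tissue, fewer cells that make an RNA and less RNA per cell cannot be told apart.

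Per3, a period gene with a lesser part in the loop than its relatives, gave the difference between runs with the lowest FDR over all libraries. It lies on the minus strand of chr4:151003652-151044665 (ENSMUSG00000028957). Its level was 49.6, 55.1, 52.9, 53.2 and 46.1 CPM in libraries 72 to 76. In libraries 41 to 43 it was 36.3, 31.96 and 27.7 CPM, and in WT libraries 44 to 47 it was 38.0, 34.2, 26.9 and 31.9 CPM. First-run MFN2 and WT overlapped, and the second run lay above both. The run comparison within MFN2 gave 0.68 ± 0.12 on the log2 scale, 1.61-fold, with FDR 0.00868, and 0.59 ± 0.11 with FDR 0.00555 without library 43.

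Per1, a period gene that light and hormones induce quickly, gave a difference that depended on library 43. It lies on the plus strand of chr11:69095217-69109960 (ENSMUSG00000020893). It stood at 48.0, 54.6, 59.6, 41.2 and 43.2 CPM in the second run, at 28.1 and 25.7 CPM in MFN2 libraries 41 and 42, and at 59.5 CPM in library 43. WT libraries held 23.7, 26.7, 20.6 and 25.8 CPM. Only library 43 of the first run reached the second-run range. The fit gave 0.39 ± 0.24 on the log2 scale with FDR 0.318 over all libraries and 0.87 ± 0.14, 1.83-fold, with FDR 0.00328 without library 43.

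Per2, the period gene on which the loop leans most (chr1:91415982-91459324, minus strand, ENSMUSG00000055866), ran in the same order. It stood at 16.1, 19.01, 18.4, 17.3 and 13.9 CPM in the second run, at 13.8 and 12.2 CPM in libraries 41 and 42, at 20.4 CPM in library 43 and at 13.5, 11.7, 9.30 and 11.4 CPM in WT. The lowest second-run value and the highest value of the first run apart from library 43 were close, and the run comparison did not pass, with 0.14 ± 0.17 and FDR 0.636, or 0.38 ± 0.14 and FDR 0.0873 without library 43.

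Arntl, the activator whose RNA peaks in antiphase to Dbp, lay the other way. It is on the plus strand of chr7:113207465-113314126 (ENSMUSG00000055116). Its level was 16.1, 17.3, 17.8, 15.3 and 17.2 CPM in libraries 72 to 76, against 18.8, 19.3 and 37.7 CPM in libraries 41 to 43 and 23.5, 21.9, 21.8 and 21.1 CPM in WT. All 5 second-run libraries lay below all 7 of the first run, and MFN2 libraries 41 and 42 lay between the second run and WT. Within MFN2 the log2 fold change was -0.59 ± 0.19 with FDR 0.0667, and -0.19 ± 0.08 with FDR 0.141 without library 43, so the difference did not pass in either fit. It passed when library 41 (-0.80, FDR 0.0237) or library 42 (-0.75, FDR 0.0295) was left out, which gives library 43 more weight.

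The 2 REV-ERB genes and the remaining members did not pass between runs over all libraries or without library 43. Nr1d1 (chr11:98767932-98775333, minus strand, ENSMUSG00000020889) stood at 45.04 ± 2.43 CPM (SD, n = 5) in the second run, at 42.1, 36.9 and 53.7 CPM in libraries 41 to 43 and at 40.7 ± 2.42 CPM in WT (n = 4). Nr1d2 (chr14:18204054-18239127, minus strand, ENSMUSG00000021775) stood at 103 ± 3.87 CPM in the second run, at 94.8, 85.0 and 73.7 CPM in libraries 41 to 43 and at 94.2 ± 10.1 CPM in WT. Its 5 second-run values lay above those of the 3 first-run MFN2 libraries, where 9.62% of all genes were separated as higher. They overlapped with WT. Within MFN2 the log2 difference between runs was 0.03 ± 0.10 for Nr1d1 (FDR 0.890) and 0.29 ± 0.09 for Nr1d2 (FDR 0.067). Without library 43 it was 0.19 ± 0.08 for Nr1d1 (FDR 0.119) and 0.20 ± 0.08 for Nr1d2 (FDR 0.120). Nr1d2 passed without library 41 (0.35, FDR 0.0422) or library 44 (0.29, FDR 0.0489). Clock, the partner of BMAL1 (chr5:76209868-76304792, minus strand, ENSMUSG00000029238), stayed between 110.2 and 128 CPM in all 12 libraries, with a log2 difference of -0.10 ± 0.06 (FDR 0.310), and -0.06 ± 0.06 (FDR 0.553) without library 43. Cry1, a strong repressor of the BMAL1 pair (chr10:85131700-85185064, minus strand, ENSMUSG00000020038), stayed between 14.3 and 17.9 CPM, with -0.06 ± 0.08 (FDR 0.636), and -0.05 ± 0.09 (FDR 0.749) without library 43. Cry2, its relative (chr2:92403646-92434043, minus strand, ENSMUSG00000068742), was 122 CPM in library 43 and between 67.2 and 79.0 CPM in the rest. Its log2 difference was -0.22 ± 0.14 (FDR 0.313), and 0.07 ± 0.06 (FDR 0.464) without library 43. These p-values measure the spread between the libraries of a group, and a difference that missed the threshold is not shown to be absent.

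Counted over the members, 2 of 10 (Per3 and Dbp) were higher in the second run within MFN2 and 0 were lower at an FDR of 0.05. Of all genes tested 8.40% passed, 3.79% higher and 4.61% lower. Without library 43 the count was 3 of 10 higher (Per1, Per3 and Dbp) and 0 lower, where 14.0% of all genes passed, 7.02% higher and 6.98% lower. Without library 73 the same 2 members passed, Per3 at 0.63 (FDR 0.0262) and Dbp at 0.58 (FDR 0.0483), where 558 of 15798 genes did. The median log2 fold change was 0.08 over the members and 0.20 without library 43, beside 0.004 and 0.005 over all genes tested. With sex as a covariate Per3 passed, at 0.79 with FDR 0.0263, and Dbp, with a larger log2 fold change and a larger SE than in the fit without sex, did not. In that fit 1.69% of all genes passed. With sex as a covariate and without library 43, a setting added after the data were seen, 6 of 10 were higher (Per1, Per2, Per3, Nr1d1, Nr1d2 and Dbp) and 0 lower, where 12.2% of all genes passed, 5.88% higher. In that setting libraries 41 and 42 are the only first-run MFN2 libraries and differ in sex. Library 42 is the only female among the first-run MFN2 libraries, so the runs were not compared within females.

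**Figure D2:**
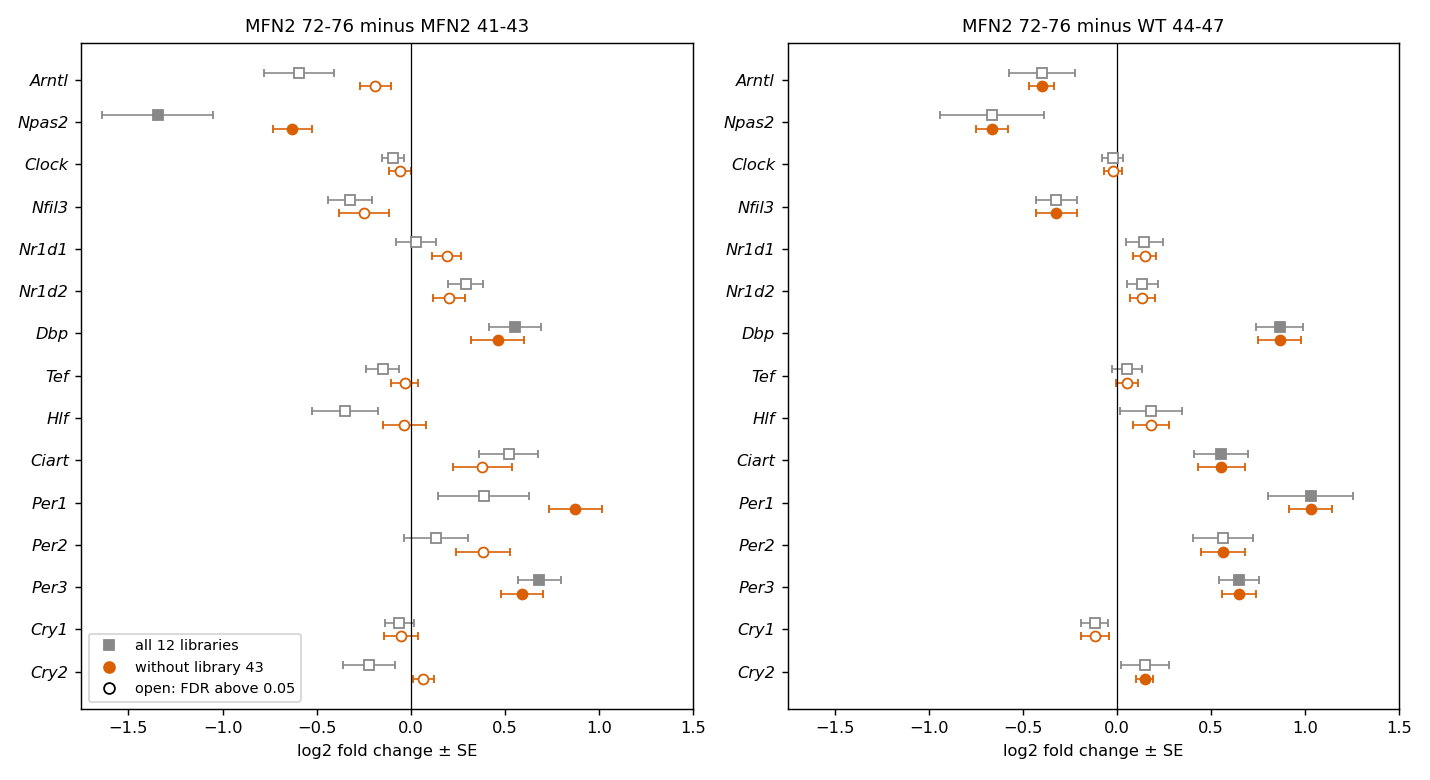
Log2 fold change ± SE (horizontal axis) of the 10 clock genes and 5 relatives for the second-run MFN2 libraries against first-run MFN2 (left) and against WT (right), over all 12 libraries (grey squares) and without library 43 (orange circles), filled where the FDR was 0.05 or less. Per1, Per3 and Dbp lie to the right of 0 and Arntl and Npas2 to the left in both panels, and the SE of Arntl against WT shrinks from 0.17 to 0.07 without library 43.

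Against the 4 WT mice the second-run MFN2 mice had higher Per1, Per3 and Dbp, in a comparison added after the data were seen. It shares its 5 second-run libraries with the run comparison, and its genotype and run cannot be told apart. Per1 was 2.04-fold higher (1.03 ± 0.23 on the log2 scale, FDR 0.0214), Dbp 1.82-fold (0.86 ± 0.13, FDR 0.00444) and Per3 1.57-fold (0.65 ± 0.11, FDR 0.00623), so 3 of 10 members passed where 7.68% of all genes did, 3.57% higher. The call of Per1 was lost without library 45, 46, 73 or 74 (FDR 0.0505 to 0.0787) and with no filter on low counts (FDR 0.0714). Arntl was lower by -0.40 ± 0.17 with FDR 0.174. Without library 43, which enters this contrast only through the shared spread, 5 of 10 members were higher and 1 lower, where 22.9% of all 15835 genes passed, 1716 (10.8%) higher and 1905 lower. The added members were Per2 at 0.56 ± 0.12 (FDR 0.00423, against 0.0513 over all libraries) and Cry2 at 0.15 ± 0.04 (FDR 0.0297), and Arntl then passed at -0.40 ± 0.07 (FDR 0.00138). Library 43 stands far from its group in Arntl and Cry2, and the spread with it was wider.

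By their ranges, Dbp and Per3 were higher in all 5 second-run libraries than in all 7 first-run libraries, and Arntl lower. Over all genes, 4.34% were separated so as higher and 3.94% as lower. Leaving out library 43, Per1 and Per2 joined, for 4 members higher and 1 lower, where 7.08% and 7.35% of all genes were separated. The log2 CPM of Dbp minus that of Arntl put the antiphase pair on 1 scale. It was 1.93, 1.48, 1.45, 1.98 and 1.78 in libraries 72 to 76, and 1.21, 0.95 and -0.20 in libraries 41 to 43. WT libraries gave 0.63, 0.58, 0.29 and 0.34. Dbp was between 2.74 and 3.96 times as abundant as Arntl in the second run and between 1.22 and 1.55 times in WT, both in CPM and not per length. Libraries 41 and 42 lay between these ranges, at 2.32 and 1.93 times.

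**Figure D3:**
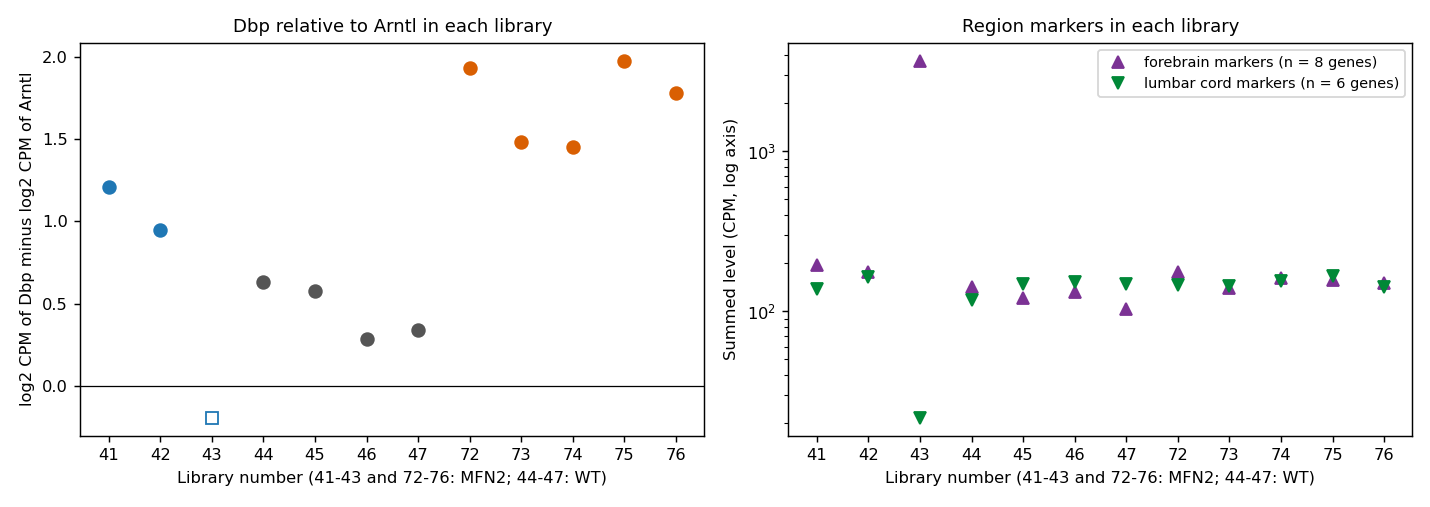
Left, log2 CPM of Dbp minus log2 CPM of Arntl in each library by its number, coloured by group, with library 43 as an open square; right, summed CPM on a log axis of 8 forebrain genes and 6 Hox genes of the lumbar cord in the same libraries. The 5 second-run libraries lie between 1.45 and 1.98 and the 4 WT libraries between 0.29 and 0.63, and library 43 alone has forebrain genes above 1000 CPM, at 3693 CPM.

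Of the 3 genes of the positive limb (Arntl, Clock and Npas2), 0 were higher and 1 lower in the second run within MFN2, with and without library 43, and all 3 had negative log2 fold changes. Of all genes 4.61% were lower, and 6.98% without library 43. Npas2, which can stand in for CLOCK, was the one that fell. It stood at 9.45, 10.7, 10.2, 9.56 and 9.53 CPM in the second run, at 15.0, 15.6 and 45 CPM in libraries 41 to 43, and at 18.0, 13.8, 16.2 and 14.7 CPM in WT. No second-run library reached the lowest first-run value. Within MFN2 its log2 fold change was -1.35 ± 0.29 (FDR 0.0228), and -0.63 ± 0.11 (FDR 0.00313) without library 43. The call was lost with sex as a covariate, at -0.90 ± 0.35 (FDR 0.205), and with sex and without library 43 it passed at -0.56 ± 0.11 (FDR 0.0100). Of the 11 genes that the pair drives (the Per, Cry and Nr1d genes, Dbp, Tef, Hlf and Ciart), 2 were higher and 0 lower, with 7 of 11 log2 fold changes positive and a median of 0.14, where 3.79% of all genes were higher. Without library 43 it was 3 higher and 0 lower, 8 of 11 positive, with a median of 0.20, where 7.02% of all genes were higher. Except for Tef, Hlf and Ciart these are members already counted.

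The wider list of 22 other clock genes gave 0 higher and 2 lower between runs, and 0 higher and 3 lower without library 43. Beside the 8.40% and 14.0% of all genes that passed in these fits, the counts are near the background and are no result about the list. Btrc, part of a ubiquitin ligase that acts on PER, lay between 79.8 and 85.4 CPM in the second run and between 87.3 and 103 CPM in the first, and fell by 0.29 on the log2 scale within MFN2 (SE 0.06, FDR 0.0195), and by 0.27 without library 43 (SE 0.06, FDR 0.0154). Its relative Fbxw11 fell by 0.30 without library 43 (SE 0.06, FDR 0.00748), against -0.23 with FDR 0.0557 over all libraries. Ciart, a repressor of the BMAL1 pair, lay between 7.32 and 9.23 CPM in the second run and between 4.36 and 6.87 CPM in the first. Its log2 fold change within MFN2 was 0.52 ± 0.16 (FDR 0.0602), or 0.38 ± 0.16 (FDR 0.119) without library 43, and it was higher than in WT by 0.55 ± 0.14 (FDR 0.0394). Nfil3, which represses at D-boxes, gave -0.32 ± 0.12 within MFN2 (FDR 0.102), or -0.25 ± 0.13 (FDR 0.234) without library 43. Against WT Nfil3 passed without library 43 (-0.32 ± 0.11, FDR 0.0471) and not with that library in the fit (FDR 0.0937). Its 5 second-run values, at most 7.34 CPM, lay below the 4 WT values, at least 7.58 CPM. Of all genes 10.2% were separated so as lower. Tef and Hlf, relatives of Dbp, gave -0.15 (FDR 0.290) and -0.35 (FDR 0.212), and -0.03 each without library 43. Bhlhe40 and Bhlhe41, repressors at E-boxes, gave 0.05 (FDR 0.731) and 0.18 (FDR 0.614), and -0.02 (FDR 0.873) and -0.12 (FDR 0.285) without library 43. Rora, an activator of Arntl, gave 0.01 (FDR 0.918), and 0.06 (FDR 0.605) without it. Against WT 1 of the 22 was higher and 2 lower (Btrc and Fbxw11), where 7.68% of all genes passed. Without library 43 the second run had 3 higher than WT (Ciart, Nampt and Nono) and 5 lower (Npas2, Btrc, Fbxw11, Csnk1d and Nfil3), where 22.9% of all genes passed.

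**Figure D4:**
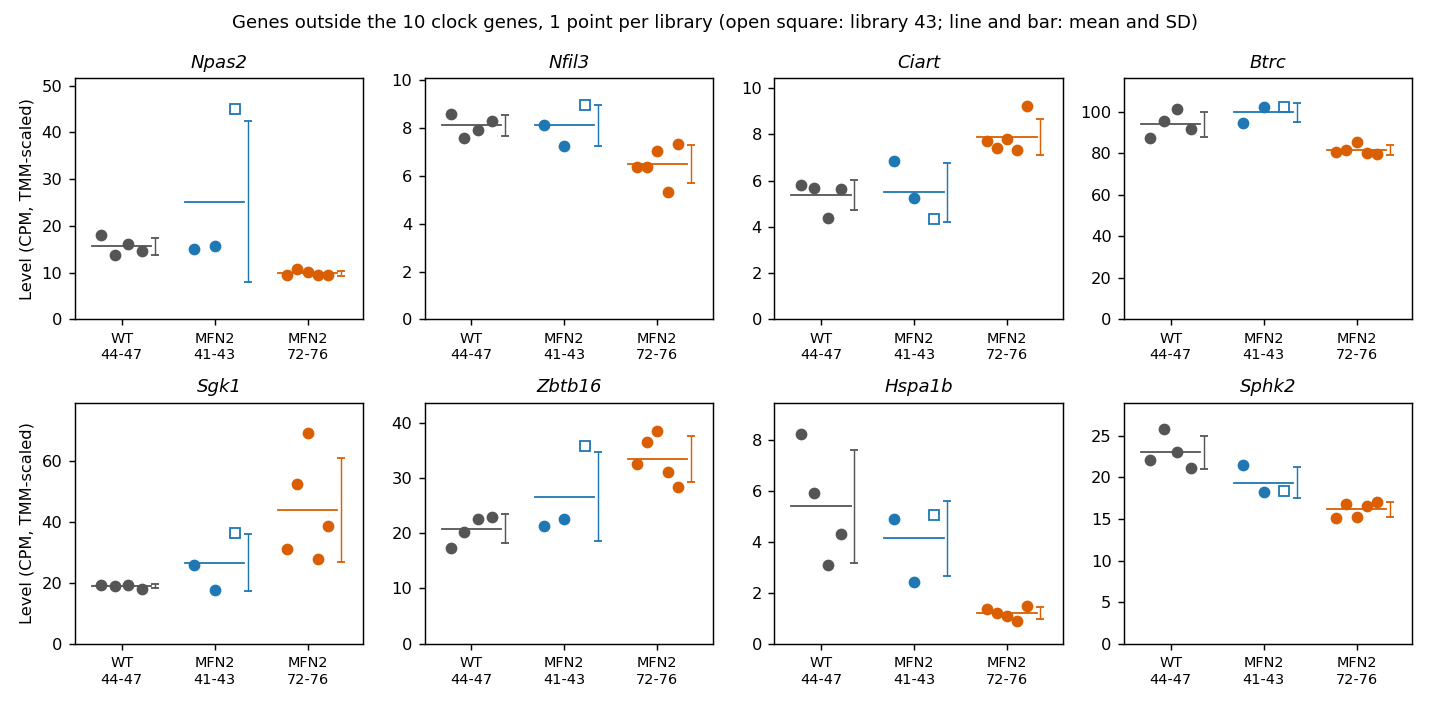
Level in CPM (vertical axis, starting at 0) of 8 genes outside the 10 members in each library, by group, with the mean as a line and the SD as a bar and library 43 as an open square. The 5 second-run points of Npas2, Btrc and Hspa1b lie below all first-run points and those of Ciart above them, while the second-run points of Sgk1 spread from 27.8 to 69.2 CPM.

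Values of other programmes that reach clock genes were set beside these. Glucocorticoid hormones, which themselves rise and fall through the day, induce Per1. Of 12 glucocorticoid-induced genes 0 were higher and 0 lower between runs within MFN2. Plin4, a coat protein of lipid droplets, gave 0.85 (FDR 0.320), Sgk1, a kinase, 0.72 (FDR 0.131) and Pdk4, a mitochondrial kinase, -0.53 (FDR 0.283). Without library 43 these were 0.48 (FDR 0.583), 1.01 (FDR 0.0805) and -0.64 (FDR 0.249). In that fit Zbtb16, a transcription factor, was higher by 0.61 (FDR 0.00861) and Tsc22d3, a mediator of the hormone's effects, by 0.21 (FDR 0.0352). Sgk1 stood at 31.1, 52.5, 69.2, 27.8 and 38.7 CPM in libraries 72 to 76 and between 18.1 and 19.3 CPM in WT, 1.22 higher on the log2 scale (SE 0.27, FDR 0.0225). Against WT 2 of the 12 genes were higher and 0 lower, where 7.68% of all genes passed. Their log2 fold changes were positive for 6 and negative for 6, with a median of 0.04. Of 8 temperature-responsive genes 0 were higher and 1 lower between runs within MFN2. Hspa1b, a heat-induced chaperone, lay between 0.890 and 1.48 CPM in the second run and between 2.44 and 8.25 CPM in the first, and fell by 1.78 within MFN2 (SE 0.33, FDR 0.0116), and by 1.62 without library 43 (SE 0.35, FDR 0.0106). With sex as a covariate it gave -1.08 ± 0.28 and lost its call (FDR 0.0781), and with sex and without library 43 it passed at -1.07 ± 0.29 (FDR 0.0330). Its neighbour Hspa1a, which shares near-identical sequence with it so that reads can be split between them, gave -0.92 (FDR 0.0737), and Hsp90aa1 gave 0.30 (FDR 0.0869), or 0.18 (FDR 0.152) without library 43. Without library 43 the list had 0 higher and 2 lower (Hspa1b and Hspa1a). Of the 11 activity-induced genes tested 0 were higher and 2 lower. These were Egr3 at -3.12 (FDR 0.0262), which was 39.8 CPM in library 43 and between 1.40 and 2.86 CPM elsewhere, and Arc at -0.78 (FDR 0.0493). Nr4a1 at -1.802 (FDR 0.0753) and Egr1 at -1.47 (FDR 0.0822) were also highest in library 43. Without it 1 was higher (Npas4 at 1.52, FDR 0.00676) and 1 lower (Egr3 at -0.71, FDR 0.0462). Arc then gave -0.31 (FDR 0.0606). None of the genes of these 3 lists passed with sex as a covariate and library 43 in the fit. There Egr3 gave -1.72 (FDR 0.384) and Arc -0.66 (FDR 0.274). With sex and without library 43 Zbtb16 (0.49, FDR 0.0327), Npas4 (1.76, FDR 0.00594) and Arc (-0.40, FDR 0.0385) passed, as did Hspa1b. Tsc22d3 (0.21, FDR 0.0668), Hspa1a (-1.11, FDR 0.0753) and Egr3 (-0.65, FDR 0.103) lost their calls in that setting. The lists are short, and 8.40% of all genes passed between runs, or 14.0% without library 43. The part of these programmes in the differences of the clock genes was not tested.

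Cell type markers moved with the runs in part. The summed level of 5 astrocyte genes was 1952 to 3133 CPM in the second run, 3442 to 4454 CPM in WT and 2733 to 4860 CPM in libraries 41 and 42, with Gfap the most abundant. Without library 43, 2 of the 5 were lower between runs, and 0 over all libraries. Beside the counts in this paragraph, 4.61% of all genes were lower between runs over all libraries, and 6.98% without library 43. The marker lists are short, so such counts say little about a cell type. The 5 microglial genes summed to 74.02 to 92.2 CPM in the second run and 90.7 to 145 CPM in the first run apart from library 43, with Csf1r the most abundant, and 2 of 5 were lower, or 1 of 5 without library 43. With sex as a covariate 0 astrocyte and 0 microglial genes passed, with and without library 43. The log2 fold changes of the 5 microglial genes were still negative. They were -0.42 to -0.72 with sex and -0.30 to -0.67 with sex and no library 43, against -0.56 to -0.87 over all libraries without sex. Those of the 5 astrocyte genes were also negative, at -0.05 to -0.68 with sex and -0.03 to -0.94 with sex and no library 43. Of the forebrain genes 4 of the 6 tested were lower with library 43 in the fit and 0 without it. The lists of neuron, motor neuron, oligodendrocyte, endothelial, Schwann cell, meningeal, blood, skeletal muscle and lumbar cord genes had 0 called in either direction between runs, with and without library 43. With sex as a covariate and without library 43, 1 neuron gene (Snap25) and 1 endothelial gene (Cldn5) were lower, where 12.2% of all genes passed. All 5 blood and all 5 skeletal muscle genes nevertheless had positive log2 fold changes, with medians of 0.70 and 2.37, or 0.86 and 2.65 without library 43, and their summed levels were highest within the second run in library 73. All 5 motor neuron genes were positive too, with medians of 0.74 and 0.25. With library 43 in the fit all 6 lumbar cord genes (median 0.52) and all 5 oligodendrocyte genes (0.35) were positive, and without it 4 of 6 and 3 of 5. All 5 meningeal genes (median 0.64) were positive without it and 2 of 5 with it, and the Schwann cell genes tested were 3 of 3 and 1 of 4. No astrocyte or microglial gene of the lists was at 0 in any library. Their part in the differences of the clock genes was not tested.

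Reads of overlapping genes gave further values beside Dbp and Nr1d1. Sphk2, a sphingosine kinase on the strand opposite to Dbp, stood between 15.1 and 17.0 CPM in the second run, at 21.5, 18.3 and 18.4 CPM in libraries 41 to 43 and between 21.1 and 25.8 CPM in WT. The log2 fold change of Sphk2 was -0.26 ± 0.09 between runs (FDR 0.0769), -0.30 ± 0.10 without library 43 (FDR 0.0562) and -0.51 ± 0.08 against WT (FDR 0.00576). Among libraries 41 to 43 both Sphk2 and Dbp were highest in library 41. The part of Sphk2 reads in the Dbp counts was not tested. Thra, a thyroid hormone receptor opposite to Nr1d1, was 794 CPM in library 43 and between 314 and 398 CPM elsewhere. The antisense genes D930015M05Rik and Gm45355 stayed under 1 CPM in every library.

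Between the genotypes no member passed. Over all 8 MFN2 and 4 WT libraries 0 of 10 members and 0.00% of all genes passed an FDR of 0.05 in edgeR's test, while 15.0% of genes had an unadjusted p under 0.05 and DESeq2 called 200 genes, Per1 and Dbp among them. Per1 gave 0.89 ± 0.22 (FDR 0.254), Dbp 0.68 ± 0.17 (FDR 0.254), Per2 0.51 ± 0.15 (FDR 0.254) and Per3 0.43 ± 0.19 (FDR 0.311). Without library 43 these were 0.83 (FDR 0.103), 0.75 (FDR 0.0669), 0.46 (FDR 0.113) and 0.50 (FDR 0.123). Arntl gave -0.15 ± 0.21 (FDR 0.738), and -0.34 ± 0.07 (FDR 0.0705) without library 43. Without library 43 the count was 0 of 10, where 0.120% of all genes passed. Dbp was then higher in all 7 MFN2 libraries than in all 4 WT libraries and Arntl lower in all 7, where 1.37% and 1.48% of all genes were separated in these directions. The study itself reported differentially expressed genes between MFN2 and WT mice. It used an earlier version of edgeR with its generalized linear model approach, also at an FDR of 0.05. The reason for the difference from the 0.00% found here was not tested.

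Within the first run, where both genotypes are present, 0 of 10 members and 0.00% of genes passed, with and without library 43. Over all libraries 14.9% of genes had an unadjusted p under 0.05 and DESeq2 called 49 genes. Dbp gave 0.31 ± 0.14 (FDR 0.329) and 0.40 ± 0.14 (FDR 0.566) without library 43. Per1 gave 0.64 ± 0.25 (FDR 0.290) and 0.15 ± 0.14 (FDR 0.843), Per3 -0.03 ± 0.12 (FDR 0.907) and 0.06 ± 0.11 (FDR 0.935), and Arntl 0.19 ± 0.20 (FDR 0.636) and -0.21 ± 0.09 (FDR 0.585). Without library 43 this comparison rests on 2 MFN2 libraries.

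Some clock genes also varied together among mice of the same group, which share the run and the genotype but, in the first run, not the sex. Male library 41 lay above female library 42, and male library 44 above the 3 female WT libraries, for Dbp, Nr1d1, Nr1d2, Per2, Per3 and Cry1. Male library 43 lay below library 42 for Dbp, Nr1d2 and Per3 and above it for Nr1d1, Per2 and Cry1. Within the second run, all females, the 2 libraries lowest in Dbp (73 and 74) were also the 2 lowest in Nr1d1. The part of sex in the likeness was not tested. Over 11 libraries without library 43, deviations of log2 CPM from the group mean were compared with those of 15901 other genes by Pearson correlation, as a description. The libraries share depth and composition, and 11 libraries are few for so many genes. Fewer than 11 deviations are free, because the mean of each group was removed. Libraries 41 and 42 deviate equally and in opposite directions for every gene. They add only the difference between them, which is also a difference of sex. Nr1d1 was the gene most like Dbp, with r = 0.94, followed by Pcdha11, Erc1, Kbtbd7 and Nectin2 with r between 0.91 and 0.94. Tef ranked 142nd with r = 0.75, and Nr1d2 780th with r = 0.58. Per2 was the third of the genes most like Per3, with r = 0.96. Dbp and Per1 had r = -0.30, and Dbp and Arntl r = -0.11. The genes most like Arntl were Gm37509, Sdc4, Nhej1, Tmem74b and Slc2a12, with r between 0.86 and 0.90, and Npas2 ranked 426th with r = 0.61. With library 43 included, Dbp and Nr1d1 had r = 0.16 and Dbp and Arntl r = -0.41, and the genes most like Dbp were Gucy2d, Sytl5, Nat8, Stox2 and Ston2. Among those most like Arntl were then Btbd3, Wnt7b, Cadm2 and Ccnd2, with r between 0.98 and 0.99, a value that rests on library 43.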

How the data were processed

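Per the labels and the study's methods, total RNA of 12 spinal cords was made into SMARTer libraries, sequenced in paired ends and aligned to GRCm38 with STAR. The labels and the methods describe the kit differently, and neither the program that counted reads nor its strand setting is given in the sources used here. The authors deposited whole-number read counts per Ensembl gene, 1 file per library, without normalization. Symbols and coordinates came from GENCODE M21 and matched 49289 of 49548 identifiers, and all listed genes were found. Genes of the mitochondrial chromosome numbered 0.

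Genes above 1 CPM in at least 3 libraries (15942, or 15835 without library 43) entered the quasi-likelihood test (legacy form, robust) of edgeR 4.0.16 under R 4.3.3, with TMM scaling, at an FDR of 0.05 after Benjamini-Hochberg adjustment over all genes tested. The fit held 3 groups, namely MFN2 41 to 43, MFN2 72 to 76 and WT, so that all libraries share 1 estimate of the spread. The genotype comparison over all libraries held 2 groups. Levels are CPM on TMM-scaled library sizes. SE values were derived from the F statistic. Total counts, from 19359454 to 26738930 per library, put at least 210 reads behind each value of the 10 members. Of 19 pairs of libraries of 1 group 0 were identical, and each counts as 1 sample. The study's methods give 8 MFN2 and 4 WT mice for as many libraries, so each library is taken as 1 mouse.

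The members, the gene lists, the alternatives and the naming rule were chosen with earlier results of these data known. The rule names all members, 8 relatives of the clock, any other clock gene called, the 3 largest differences of each further list, the 5 genes most like Dbp and Arntl, and genes overlapping a member. Some genes that the rule takes in are not reported here. Genes of the further lists that passed without library 43, the likeness of Per2 to Per3 and Npas4, Zbtb16 and Tsc22d3 were named after their values were seen. Alternatives were other filters and scalings, DESeq2 1.42.0, limma-voom 3.58.1, only the libraries compared and each library left out. The comparison of the second run with WT, sex as a covariate (read from Xist and Ddx3y) and their combinations without library 43 were added after seeing the data. The test was checked on simulated counts with 200 changed genes between the MFN2 runs. At a log2 fold change of 0.5 it recovered 68 of them (34.0%), with 3 false calls. At 1.0 it recovered 199 (99.5%), with 1 false call. The simulation gave every gene the same dispersion (0.02) and held no library that stood apart as library 43 does.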

Additional observations from a re-analysis of the deposited data

Results flagged for a closer look

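In 2 of 30 sets of values (each clock gene in each group of 4 to 10 libraries), 1 library lay far from the others, where chance alone gives about 1.5 such sets, and both were library 43 among the 8 MFN2 libraries. For Arntl, the activator of the loop, library 43 stood at 37.7 CPM and its gap to the next library was 0.822 of the whole range. For Cry2, a repressor, it stood at 122 CPM with a gap of 0.849 of the range. The same library had forebrain genes at 3693 CPM and lumbar Hox genes at 21.5 CPM. Their part in these levels was not tested.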

How the results depend on the processing

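No paired analysis was possible because no library number occurs in more than 1 group. The number of genes that passed between runs within MFN2 was 1339, and in separate fits it was 815 with no filter on low counts, 2536 with DESeq2, 342 with only the libraries compared, 269 with sex as a covariate and 2375 with only the libraries compared and no library 43. Leaving out 1 library gave 501 to 2217. For the members (2), the counts were 4 with DESeq2 (Arntl at FDR 0.0280 and Nr1d2 at FDR 0.0357 besides Per3 and Dbp), 1 with only the libraries compared, 1 with sex as a covariate, 6 with sex and no library 43, and 1 (without library 72) to 4 (without library 41) with 1 library left out. Genotype calls over all libraries (0) were 200 with DESeq2, 18 with sex and no library 43, and 0 to 19 with 1 library left out, and members (0) were 2 with DESeq2 and 0 in each fit with 1 library left out. Within the first run (0) they were 49 with DESeq2, 1 with only the libraries compared and 0 to 1 with 1 left out, with 0 members throughout the last. For the second run against WT (1224) they were 759 with no filter, 2151 with DESeq2, 3753 with sex and no library 43, and 384 (without library 45) to 3621 (without library 43). Members (3) were 7 with sex and no library 43, and 2 to 6. The cause of these shifts was not tested. Under library-size scaling 866 of 1384 genes called between runs were higher, against 604 of 1339, and 440 of 1393 under filterByExpr. Against WT these were 1011 of 1424, 569 of 1224 and 435 of 1143. Between runs the log2 fold change of Dbp, Per1 and Per3 was above 0 and that of Arntl below 0 under every alternative. Dbp lost its call with sex as a covariate (FDR 0.0617), where its log2 fold change was larger (0.68 ± 0.16 against 0.55 ± 0.14). Signs turned only for values near 0 or with library 43. Between runs Cry1 became 0.0065 with sex and 0.0026 with sex and no library 43, Cry2 0.033 with sex and no library 43 and 0.055 with only the libraries compared and no library 43, and Nr1d1 -0.014 under filterByExpr. Over the genotypes Clock became -0.0096 with sex and no library 43. Within the first run Arntl became -0.23 and Nr1d1 -0.085 with sex and no library 43. Against WT Clock became 0.045 under library-size scaling. With 1 library left out, ranges that crossed 0 between runs were -0.0085 to 0.38 for Per2, -0.40 to 0.065 for Cry2 and -0.088 to 0.19 for Nr1d1. Those over the genotypes were -0.0069 to 0.031 for Clock and -0.011 to 0.11 for Nr1d2. Those within the first run were -0.21 to 0.39 for Arntl, -0.11 to 0.058 for Per3 and -0.044 to 0.23 for Nr1d1. Dbp minus Arntl was the same to 2 decimals under library-size scaling.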

Other observations

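Among the 22 other clock genes, 0 passed in the comparison of all MFN2 with all WT libraries, with and without library 43. Nono, an RNA-binding partner of PER proteins, was the 1 gene of the list whose groups did not overlap over all libraries, at 106 to 122 CPM in the 8 MFN2 libraries and 97.2 to 105 CPM in the 4 WT libraries, where 0.979% of all genes were separated as higher. Its log2 fold change was 0.15 with FDR 0.278. Nono was singled out after its values were seen.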
